A study of Mus musculus with 48 samples.

Results

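Lipid-associated macrophages are macrophages of fat tissue and fatty liver that carry a shared set of transcripts for lipid sensing, lysosomes and fatty acid handling. The genes described here are 10 members of that set, and all 10 were found among the 56748 Ensembl identifiers of the count files by matching identifier to mouse symbol. They were Trem2, Gpnmb, Spp1, Itgax, Cd9, Lgals3, Atp6v0d2, Fabp5, Cd63 and Cd68. All 10 passed the filter on low counts in each of the 3 tissues. They were picked by name, with no threshold on these counts, but with earlier results of these data known. Their counts beside shares of all genes are therefore descriptions.

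RNA had been sequenced from liver, from the heat-producing brown fat (brown adipose tissue, BAT) and from the epididymal fat pad (eWAT, a white adipose tissue) of male littermates that were either hepAGT+/+ (WT) or hepAGT-/- (KO), a hepatocyte deletion of angiotensinogen, the precursor of the angiotensin peptides. All mice, controls included, received a Western diet with 21% milk fat and 0.2% cholesterol over 12 weeks. Housing was at 20 to 22 °C, called RT for room temperature, or at 30 °C, called TN for thermoneutrality, at which a mouse needs to make little heat. Each of the 12 groups of tissue, genotype and housing held 4 libraries, labelled as biological replicates. The labels give neither age nor the Cre driver, and all 4 groups of a tissue share the diet and sex. The genotype comparison asks what the hepatocyte deletion changes in each tissue, and the housing comparison asks the same of warmth.

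CPM denotes the level (counts per megacount of the library total, scaled by TMM, the trimmed mean of M values), and changes are log2 differences. Summed levels of marker lists, and those of Agt, Alb, Ucp1 and Adipoq, are per megacount without the TMM scaling. The word called stands for an adjusted p under 0.05 by the edgeR quasi-likelihood test, with Benjamini-Hochberg adjustment across every gene tested in that tissue. Library totals (in megacounts, M) were 23.7 to 36.5 M for the liver samples, 25.3 to 39.4 M for BAT and 28.7 to 43.7 M for eWAT. In liver, Agt ranged from 254 to 455 CPM in WT and from 133 to 213 CPM in KO, with no overlap between the 8 KO and 8 WT libraries. In eWAT the direction was opposite, with a median of 71.6 CPM in WT and 146 CPM in KO, also without overlap. The tissue labels matched their defining markers: Alb was at least 34597 CPM in liver, Ucp1 at least 1301 CPM in BAT and Adipoq at least 2527 CPM in eWAT. Replicate 18 of WT eWAT at RT stood apart with 879 CPM over 7 epididymis markers, 5 of them with counts and Cst11 and Rnase10 at 0, against at most 14.9 CPM in any other eWAT library. In BAT, 6 of 16 libraries held over 500 CPM of skeletal muscle markers, 2 each in KO at RT, KO at TN and WT at TN.

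Macrophages that take up lipid from dying or overfilled adipocytes gather around them and switch on genes for lysosomal digestion and lipid export. TREM2 is the surface receptor for lipids that, through the adaptor TYROBP and the kinase SYK, drives much of this programme. GPNMB is a lysosomal and surface glycoprotein. ATP6V0D2 is a subunit of the proton pump (V-ATPase) that acidifies lysosomes, found in macrophages and osteoclasts among other cells. ITGAX (CD11c) is an integrin chain of macrophages and dendritic cells, and SPP1 (osteopontin) is a secreted matrix protein. LGALS3 (galectin-3) binds sugars on damaged membranes, CD9 and CD63 are tetraspanins of surface and endosomal membranes, CD68 is a lysosomal glycoprotein of macrophages, and FABP5 carries fatty acids in the cytoplasm. Several are not confined to macrophages: brown adipocytes express Fabp5, and many cell types express Cd9 and Cd63.

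In the annotation of GRCm38 (GENCODE vM21), Trem2 lies on chromosome 17 from 48346401 to 48354147 and Gpnmb on chromosome 6 from 49036546 to 49070929, both on the plus strand. Itgax spans 128129547 to 128150657 of chromosome 7 (plus strand), and Cd68 spans 69664213 to 69666153 of chromosome 11 (minus strand). Spp1 spans 104435118 to 104441050 of chromosome 5, Lgals3 47367751 to 47386160 of chromosome 14, Fabp5 10012548 to 10016607 of chromosome 3 and Cd63 128900989 to 128912822 of chromosome 10 (plus strand). Cd9 spans 125460266 to 125494791 of chromosome 6 and Atp6v0d2 19876841 to 19922605 of chromosome 4 (minus strand). The exons of Spp1 overlap those of Gm42793 on the same strand (309 bases), which counting by strand would not separate. Those of Cd9 overlap Gm26728 on the opposite strand (218 bases). Whether the counting used strand is not given in the sources used here. Reads of Cd63, Cd9 and Fabp5 may also be split with the related loci Cd63-ps, Cd9-ps and Fabp5l2, so the values of Spp1, Cd9, Cd63 and Fabp5 carry that uncertainty.

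Trem2, Gpnmb, Itgax and Cd68 were all lower in the eWAT of KO mice at RT, and the stretch before the first transcribed base of each is shown for that reason. Sequences are from RefSeq on GRCm38.p6, 250 bases before to 30 bases from the start, 5′ to 3′ on the gene's strand. They lie at chr17:48346151-48346430, chr6:49036268-49036547, chr7:128129300-128129579 and chr11:69666141-69666420. Capitals mark matches to TGANTCA, which with C or G in the middle is the site bound by AP-1 factors, and which has A in the middle in Trem2.
Trem2: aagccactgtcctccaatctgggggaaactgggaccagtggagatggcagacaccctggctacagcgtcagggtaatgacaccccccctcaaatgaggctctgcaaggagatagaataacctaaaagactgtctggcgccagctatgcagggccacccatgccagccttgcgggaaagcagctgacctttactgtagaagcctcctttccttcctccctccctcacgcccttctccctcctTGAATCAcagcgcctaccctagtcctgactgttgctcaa
Gpnmb: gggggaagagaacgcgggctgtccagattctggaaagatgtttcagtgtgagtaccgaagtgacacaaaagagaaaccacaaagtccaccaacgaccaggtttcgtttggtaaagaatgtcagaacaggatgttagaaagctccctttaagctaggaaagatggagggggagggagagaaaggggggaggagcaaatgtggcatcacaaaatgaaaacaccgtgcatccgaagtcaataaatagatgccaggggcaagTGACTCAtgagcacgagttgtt
Itgax: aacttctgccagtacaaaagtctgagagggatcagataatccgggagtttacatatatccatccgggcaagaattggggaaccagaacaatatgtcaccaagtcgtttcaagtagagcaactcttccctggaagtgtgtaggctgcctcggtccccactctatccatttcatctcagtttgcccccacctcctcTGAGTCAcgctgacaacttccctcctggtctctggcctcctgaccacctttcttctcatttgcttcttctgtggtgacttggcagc
Cd68: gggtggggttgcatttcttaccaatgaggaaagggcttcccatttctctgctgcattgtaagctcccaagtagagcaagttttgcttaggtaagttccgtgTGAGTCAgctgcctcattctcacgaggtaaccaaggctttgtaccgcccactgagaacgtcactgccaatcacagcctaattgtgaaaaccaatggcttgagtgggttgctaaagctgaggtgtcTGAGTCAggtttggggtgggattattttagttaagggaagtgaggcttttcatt
The match began at -9 in Trem2, 8 in Gpnmb, -56 in Itgax, and -149 and -24 in Cd68, counted with the first transcribed base as 0. Windows of 300 bases existed for 8 members, without Atp6v0d2 and Fabp5, and these 4 were the members with a match, in a motif that 7.81% of all 32851 windows held on either strand. Of the other motifs searched on both strands, CACGTG (held by 7.15% of windows), the E-box read by MITF and TFE factors, was in none of the 8. CATGTG (14.2%) was in Cd9 and GAGGAAGT (3.2%), a PU.1 type site, was in Spp1, with no overlap between matches of different motifs. The motifs were chosen after the expression values had been seen, and a match describes letters, not binding.

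Per kilobase of merged exons, in WT eWAT at RT, Lgals3 was the most abundant member at 102 CPM per kb and Trem2 the least at 2.55. In WT liver at RT the order was led by Spp1, at 24.1 CPM per kb, and in WT BAT at RT by Fabp5, at 61.8. In WT eWAT Fabp5 (90.3 CPM per kb), Cd63 (46.1), Cd68 (33.2) and Cd9 (14.6) followed Lgals3, and the others lay between 6.62 for Gpnmb and the level of Trem2. Merged exons include rare transcripts, so this scale is approximate and the order in eWAT depends on the length used. By CPM without division by length, Fabp5 (322 CPM) was above Lgals3 (189 CPM) in WT eWAT at RT. Spp1 (4.87 CPM) and Atp6v0d2 (10.7 CPM) were then below Trem2 (12.6 CPM).

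In the eWAT of mice kept at RT, 5 of the 10 genes were lower in KO than in WT, the receptor Trem2 among them, and none was higher. Over all 18933 genes tested there 4.34% were called, and 3.13% were called lower. The median log2 change of the 10 was -1.47, against -0.002 over all genes. Their changes ran from -3.11 for Atp6v0d2 to 0.09 for Cd63, and 9 of 10 were below 0.

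Trem2 stood at 2.89, 3.41, 3.69 and 3.88 CPM in the 4 KO libraries and at 6.98, 12.5, 14.6 and 16.4 CPM in the 4 WT libraries. Its log2 change was -1.86 (SE 0.39, adjusted p 0.0142). Every KO library lay below every WT library, and the KO values were close together while WT replicate 12 was low for its group.

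Gpnmb measured 5.21, 7.85, 10.3 and 15.4 CPM in KO and 18.8, 30.9, 51.4 and 71.5 CPM in WT, a log2 change of -2.15 (SE 0.50, adjusted p 0.0291). Atp6v0d2, the proton pump subunit, had 0.512, 0.681, 1.56 and 2.18 CPM in KO and 2.45, 8.77, 14.4 and 17.2 CPM in WT, a change of -3.11 (SE 0.71, adjusted p 0.0268). For both genes the groups did not overlap, although WT replicate 12 came near the highest KO library.

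Itgax was at 2.80, 3.85, 3.97 and 6.51 CPM in KO against 12.8, 18.7, 18.7 and 26.6 CPM in WT, and changed by -2.16 (SE 0.43, adjusted p 0.0115). Cd68, the macrophage lysosomal glycoprotein, was at 18.5, 21.5, 25.0 and 26.3 CPM against 26.6, 42.1, 45.9 and 52.3 CPM, a smaller change of -0.87 (SE 0.24, adjusted p 0.0485). The gap between the groups was wide for Itgax and narrow for Cd68, where the highest KO and the lowest WT library nearly met.

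Cd9 was not called but its groups did not overlap, with 17.5, 18.3, 20.4 and 23.4 CPM in KO and 28.5, 29.4, 29.5 and 31.8 CPM in WT, a log2 change of -0.58 (SE 0.17, adjusted p 0.0633). With it, 6 of 10 members had every KO library below every WT library, which held for 6.89% of all genes. Spp1, Lgals3, Fabp5 and Cd63 overlapped, with log2 changes from -2.52 to 0.09 and adjusted p from 0.0760 to 0.771. Fabp5 and Cd63 were the members nearest to 0.

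**Figure D1:**
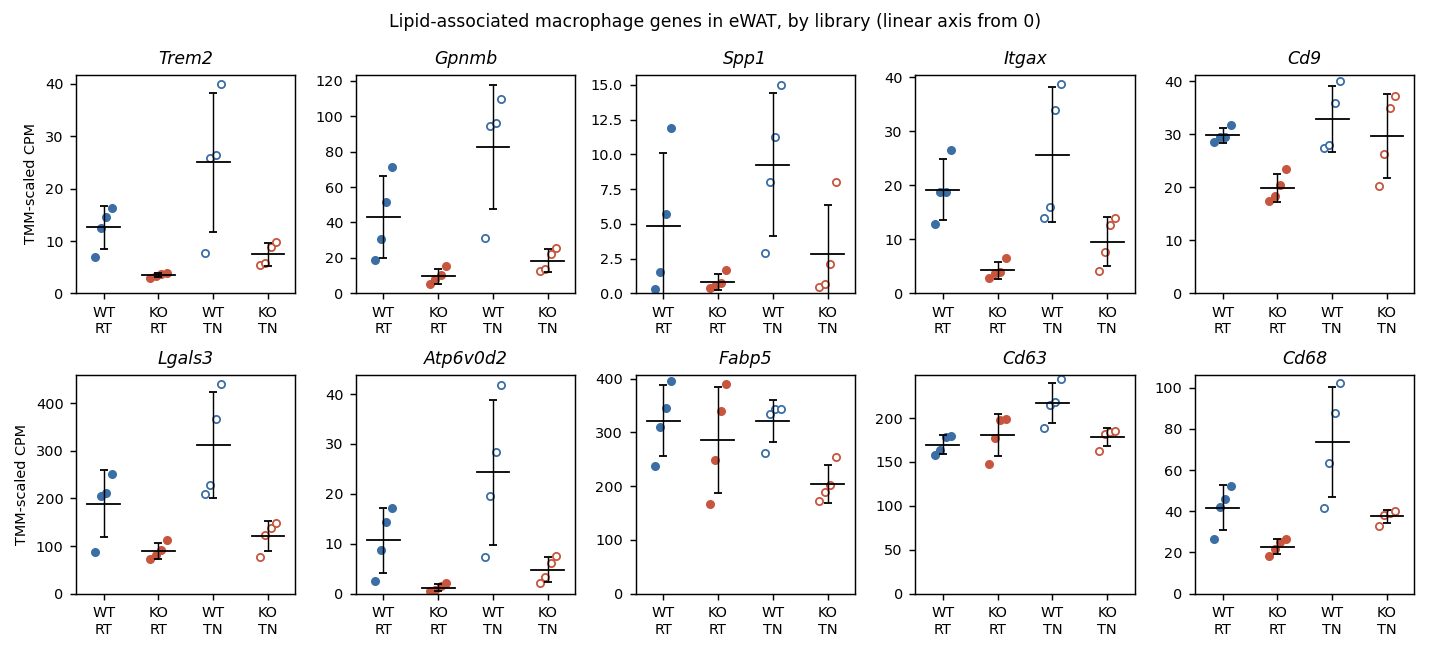
TMM-scaled CPM of the 10 genes in eWAT, 1 point per library, with the group mean (line) and SD (bar) of 4 libraries; the y axes are linear from 0. At RT the KO libraries of Trem2 lie between 2.89 and 3.88 CPM and those of WT between 6.98 and 16.4 CPM, while the groups of Fabp5 and Cd63 overlap.

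Single libraries decided several of these calls. Leaving out any 1 of the 8 libraries left 1 to 6 members called. Without WT replicate 18, the library with epididymis transcripts, only Itgax was called, along with 1.47% of all genes. Its log2 change was then -1.94 (adjusted p 0.0484), and that of Trem2 was -1.68 (adjusted p 0.0587). Gpnmb stood at -1.77 (adjusted p 0.0999), Atp6v0d2 at -2.91 (adjusted p 0.0819) and Cd68 at -0.71 (adjusted p 0.178). Leaving out KO replicate 19 also left Itgax alone, with 1.9% of all genes called. Leaving out KO replicate 10, KO replicate 16 or WT replicate 15 left 2, Trem2 and Itgax, with 2.3%, 4.19% and 2.19% of all genes. Leaving out WT replicate 13 left 3, those with Gpnmb, and 2.45% of all genes. DESeq2, which called 5.03% of 31029 genes, called 7 members, those 5 with Cd9 and Lgals3. Shares given for DESeq2 here and below are over genes without the filter on low counts, unlike those of edgeR.

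In bulk tissue, fewer macrophages and less of a transcript per macrophage cannot be told apart. Over 15 general macrophage markers (Adgre1, Csf1r, Lyz2 and others), all with counts in every group, the summed level at RT was 847 to 1125 CPM in KO and 1075 to 1455 CPM in WT, which overlapped. None of the 15 was called, and their median log2 change was -0.39, against -1.47 for the 10 members. As a percentage of that sum, Trem2 was 0.306% to 0.404% in KO and 0.652% to 1.07% in WT. Itgax was 0.312% to 0.713% against 1.20% to 1.74%, and Gpnmb 0.439% to 1.63% against 1.75% to 4.67%. For these 3 genes the groups did not overlap on this scale either. Atp6v0d2 overlapped slightly, at 0.0571% to 0.231% against 0.228% to 1.45%, and so did Cd68, at 1.56% to 2.79% against 2.48% to 3.88%. Cd63 was higher in KO without overlap, at 16.2% to 21.1% against 11.7% to 15.2%, and Spp1, Cd9, Lgals3 and Fabp5 overlapped. The ratios are descriptions and were not tested.

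Hepatocyte markers, 8 of 8 with counts, summed to 2459 to 7225 CPM in KO eWAT at RT and 1265 to 3051 CPM in WT, and mature adipocyte markers to 34196 to 46546 CPM and 29336 to 37252 CPM. Both overlapped between genotypes. Of the 10 mature adipocyte markers 2 were called, each higher in KO, and the median log2 change of the 10 was 0.17. These were Cfd, an adipocyte protease, at 1.72 (SE 0.42, adjusted p 0.0315) and Slc2a4, the insulin-regulated glucose transporter, at 0.55 (SE 0.15, adjusted p 0.0423). Of the 10, 2 had every KO library above every WT library and 2 had every KO library below. Of 10 resident macrophage markers, 1 (Marco) was lower, at -2.30 (SE 0.55, adjusted p 0.0232). Without WT replicate 18 no resident macrophage or mature adipocyte marker was called, Marco, Cfd and Slc2a4 included, while 1.47% of all genes were. Alb, a hepatocyte marker, had eWAT medians over both housings of 260 CPM in KO and 273 CPM in WT. In liver its medians were 50602 and 49916 CPM. Which cells gave the marker sums of eWAT, and their part in the result, was not tested.

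**Figure D2:**
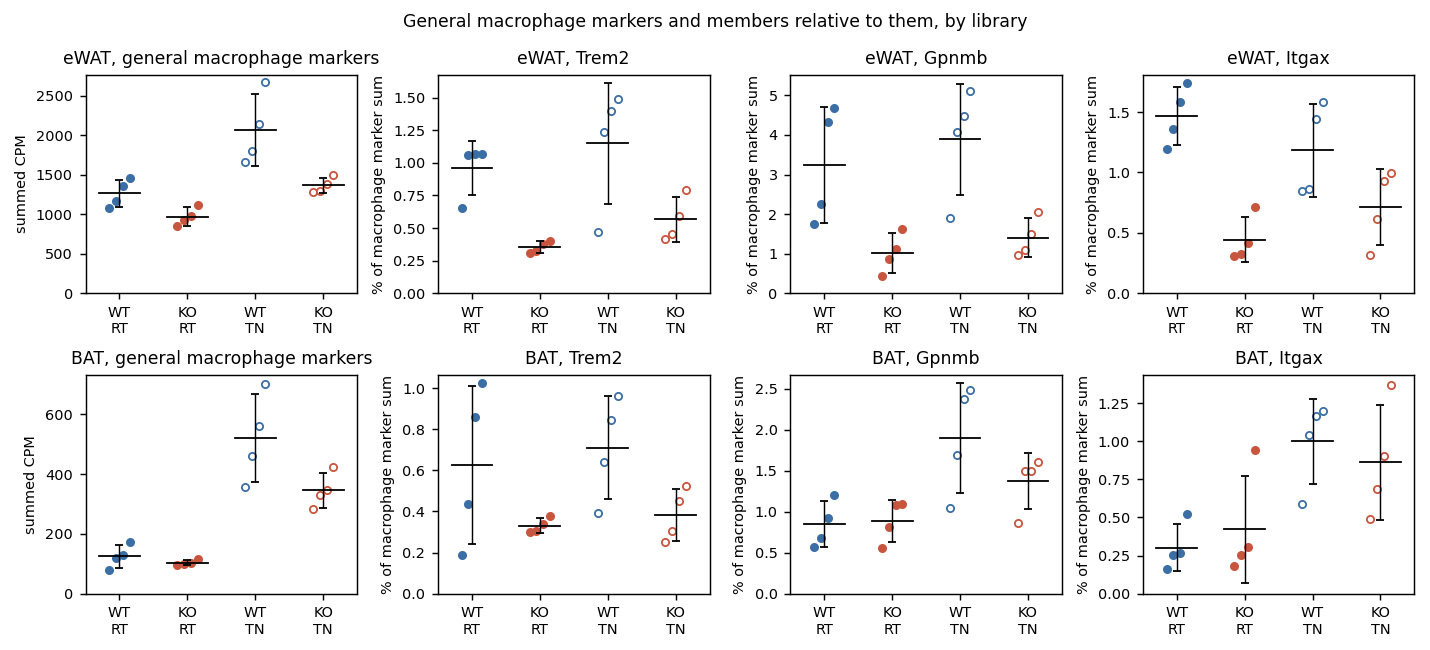
Summed CPM of 15 general macrophage markers (first column) and the CPM of Trem2, Gpnmb and Itgax as a percentage of that sum, in eWAT (top) and BAT (bottom), 1 point per library with the group mean (line) and SD (bar) of 4 libraries. In eWAT at RT the Trem2 percentage is 0.306% to 0.404% in KO and 0.652% to 1.07% in WT, while in BAT the marker sum is higher at TN than at RT in both genotypes.

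Genes that work with the members were taken from a list of 20 lysosomal and lipid handling partners, 7 of which were lower in KO eWAT at RT and none higher, with a median log2 change of -0.57. Mmp12, a macrophage elastase, went on average from 36.2 to 3.80 CPM between WT and KO, a change of -3.24 (SE 0.69, adjusted p 0.0216). The lysosomal proteases Ctsl and Ctsd changed by -1.002 (SE 0.17, adjusted p 0.00466) and -0.80 (SE 0.19, adjusted p 0.0219), and Ctsz by -0.54 (SE 0.13, adjusted p 0.0216). Among 17 other V-ATPase subunits 2 were lower, Atp6v0a1 at -0.89 (SE 0.19, adjusted p 0.0155) and Atp6v1b2 at -0.38 (SE 0.10, adjusted p 0.0472). Without WT replicate 18, 1 of the 20 partners (Ctsl) and none of the 17 subunits was called.

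In the eWAT of mice kept at TN, all 10 genes had log2 changes below 0 in KO, with a median of -1.39 against 0.011 over all genes, but edgeR called none of them. Over all genes 0.586% were called. At an unadjusted p under 0.05 the count was 8 of 10, against 13.7% of all genes, and DESeq2 called 7 (Trem2, Gpnmb, Itgax, Lgals3, Atp6v0d2, Fabp5 and Cd68) and 2.3% of all genes.

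Gpnmb stood at 12.4, 13.9, 22.3 and 25.5 CPM in KO and 31.1, 94.6, 95.9 and 109 CPM in WT, a log2 change of -2.16 (SE 0.49, adjusted p 0.0668). Lgals3 stood at 75.9, 124, 138 and 147 CPM against 209.7, 228, 367 and 441 CPM, a change of -1.36 (SE 0.32, adjusted p 0.0716). Cd68 had 32.8, 38.2, 39.2 and 40.2 CPM in KO and 41.7, 63.2, 87.6 and 102 CPM in WT, a change of -0.97 (SE 0.24, adjusted p 0.0706). In all 3 the KO libraries lay wholly below the WT libraries, and WT replicate 8 was the WT library nearest to them.

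Fabp5 and Cd63 did not overlap either. Fabp5 had 172, 190.1, 202 and 254 CPM in KO and 262, 335, 343 and 344 CPM in WT, a log2 change of -0.65 (SE 0.22, adjusted p 0.180). Cd63 had 163, 181, 184 and 185 CPM against 189, 215, 218 and 244 CPM, a change of -0.28 (SE 0.11, adjusted p 0.236). These 5 non-overlapping members compare with 4.94% of all genes lower in that way.

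Trem2 overlapped at TN only through WT replicate 8: the KO libraries held 5.40, 5.84, 8.86 and 9.85 CPM and the WT libraries 7.72, 25.9, 26.5 and 39.9 CPM. Without that library, 4 of the 10 members were called (Trem2, Gpnmb, Lgals3 and Cd68), along with 1.21% of all genes, and without WT replicate 18 of the RT group Trem2 alone was called, with 0.895% of all genes. Trem2, Spp1, Itgax, Cd9 and Atp6v0d2, the members whose groups overlapped, had log2 changes from -2.33 to -0.14 and adjusted p from 0.0525 to 0.775.

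General macrophage markers at TN summed to 1287 to 1499 CPM in KO and 1658 to 2678 CPM in WT, without overlap. Trem2 as a percentage of that sum was 0.419% to 0.795% in KO and 0.472% to 1.49% in WT, and Lgals3 6.13% to 11.5% against 12.3% to 17.1%. Cd63 was 12.5% to 14.6% against 9.10% to 11.8%. On this scale Lgals3 was lower in KO and Cd63 higher without overlap, and the other 8 members overlapped. Of the 20 partners, 3 were lower, Ctsl at -0.89 (SE 0.17, adjusted p 0.0401), Ctss at -1.18 (SE 0.25, adjusted p 0.0448) and Ctsz at -0.57 (SE 0.13, adjusted p 0.0482).

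The genotype difference was not shown to differ between RT and TN by the interaction test. No member was called there (0% of all genes), with 1 of 10 members (Cd63) and 7.61% of all genes at an unadjusted p under 0.05, and no member called by DESeq2 (0.0322% of all genes). For the members called at RT the interaction was 0.12 (SE 0.53, adjusted p 0.972) for Trem2, -0.0034 (SE 0.716, adjusted p 0.9997) for Gpnmb and 0.75 (SE 0.58, adjusted p 0.784) for Itgax. It was 0.77 (SE 0.92, adjusted p 0.873) for Atp6v0d2 and -0.10 (SE 0.33, adjusted p 0.963) for Cd68. With standard errors of this size, equal effects at both temperatures are not shown.

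For housing in eWAT, edgeR called no member in either genotype. In WT, 9 of 10 had log2 changes above 0 at TN, 4 at an unadjusted p under 0.05 (7% of all genes), none called by DESeq2 (0.335% of all genes), and 0% of all genes were called. Cd63 alone did not overlap there, at 157, 163, 179 and 179.8 CPM at RT and 189, 215, 218 and 244 CPM at TN, a log2 change of 0.35 (SE 0.11, adjusted p 0.400). Non-overlap upward held for 2.31% of all genes. General macrophage markers in WT eWAT summed to 1075 to 1455 CPM at RT and 1658 to 2678 CPM at TN, without overlap. None of the 15 was called, and their median log2 change was 0.71, against 0.41 in KO.

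In KO eWAT, where 1.74% of all genes were called for housing, 6 members had an unadjusted p under 0.05 (17.5% of all genes) and DESeq2 called 5 (Trem2, Itgax, Cd9, Atp6v0d2 and Cd68), with 3.94% of all genes. The KO libraries of Trem2 at TN lay wholly above those at RT, with a log2 change of 1.11 (SE 0.38, adjusted p 0.143). Atp6v0d2 had 2.18, 3.40, 6.14 and 7.53 CPM at TN, a change of 1.96 (SE 0.69, adjusted p 0.157), and Cd68 had a log2 change of 0.72 (SE 0.24, adjusted p 0.126). Each of these 3 had all TN libraries above all RT libraries, against 5.67% of all genes, and edgeR called none of them. General macrophage markers in KO summed to 847 to 1125 CPM at RT and 1287 to 1499 CPM at TN, without overlap, and 2 of 15 were called higher (Csf1r and Mertk). Resident macrophage markers summed to 214 to 261 CPM and 355 to 444 CPM, also without overlap, and 3 of 10 were called higher (Mrc1, Lyve1 and Cd163). Their part in the result was not tested. The comparisons at RT, at TN and between housing share libraries, so their values are set side by side and not as separate support.

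**Figure D3:**
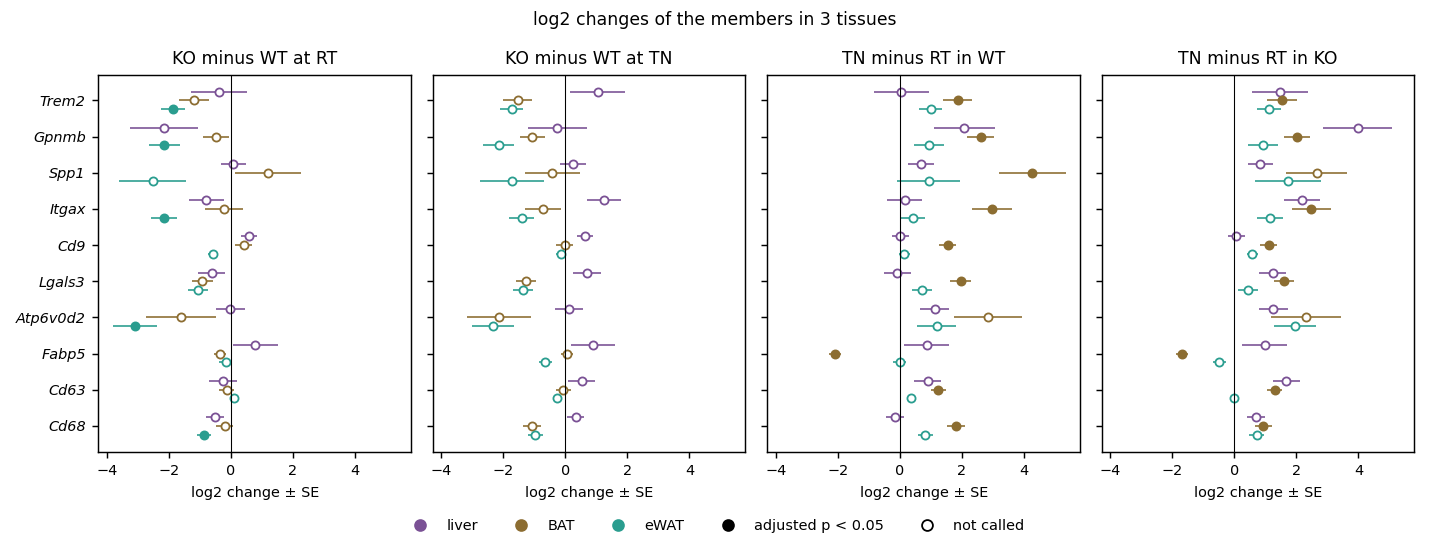
log2 change ± SE of each gene (listed down the y axis) in liver, BAT and eWAT for the 4 comparisons (panels), from edgeR on 16 libraries per tissue; filled points have an adjusted p under 0.05 and the vertical line marks 0. In eWAT the filled points lie below 0 for KO minus WT at RT, and in BAT the housing panels hold filled points above 0 for most genes and below 0 for Fabp5.

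In BAT, 9 of the 10 genes changed with housing in WT mice. At TN, 8 of the 10 genes were higher than at RT, 1 (Fabp5) was lower and 1 (Atp6v0d2) was not called. Among all 18032 genes tested in BAT 32.5% were called, 15.9% higher and 16.7% lower. The median change was 1.91 over the 10 members and 0.11 over all genes.

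Gpnmb had 0.474, 1.46, 1.57 and 2.08 CPM at RT and 3.64, 7.31, 10.6 and 12.6 CPM at TN in WT, a log2 change of 2.61 (SE 0.44, adjusted p 0.000238). Itgax had 0.136, 0.417, 0.440 and 1.21 CPM at RT and 2.55, 3.60, 4.96 and 6.34 CPM at TN, a change of 2.97 (SE 0.63, adjusted p 0.00162). Both groups were separate for both genes, with the TN libraries high throughout.

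Lgals3 had 3.56, 4.84, 7.30 and 7.73 CPM at RT and 15.2, 15.3, 29.2 and 31.2 CPM at TN, a change of 1.96 (SE 0.33, adjusted p 0.000318). Cd68 had 2.10, 2.88, 4.35 and 4.90 CPM against 8.06, 10.4, 14.2 and 17.1 CPM, a change of 1.81 (SE 0.29, adjusted p 0.000171). Again no RT library reached a TN library.

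The tetraspanins were higher as well. Cd9 had 3.02, 4.48, 5.59 and 6.40 CPM at RT and 11.4, 13.0, 14.3 and 17.9 CPM at TN, a change of 1.54 (SE 0.27, adjusted p 0.000328). Cd63 had 10.3, 19.3, 24.5 and 26.7 CPM and 43.2, 43.5, 47.0 and 55.7 CPM, a change of 1.23 (SE 0.24, adjusted p 0.000973), and both were without overlap.

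Trem2 was called although one library of each group met: 0.320, 0.847, 1.00 and 1.35 CPM at RT and 1.35, 2.76, 3.59 and 5.10 CPM at TN, a change of 1.86 (SE 0.47, adjusted p 0.00570). Spp1 was scarce, with 0, 1, 4 and 5 counts at RT and 22, 25, 65 and 158 counts at TN, and changed by 4.27 (SE 1.08, adjusted p 0.00570). Atp6v0d2, with 0, 8, 10 and 18 counts at RT and 10, 42, 144 and 201 at TN, was not called at 2.84 (SE 1.08, adjusted p 0.0536). At counts this low the sizes of the last pair are imprecise.

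Fabp5 went the other way. Its level was 179, 222, 227 and 254 CPM at RT and 44.4, 45.3, 57.6 and 59.2 CPM at TN in WT, a log2 change of -2.09 (SE 0.20, adjusted p 1.96e-06). In KO it fell from 173 to 53.2 CPM on average, which on the log2 scale is -1.70 (SE 0.20, adjusted p 2.17e-05). The RT libraries lay wholly above the TN libraries in both genotypes. In all, 7 members were higher and 1 lower without overlap in WT, against 12.9% and 14.3% of all genes.

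**Figure D4:**
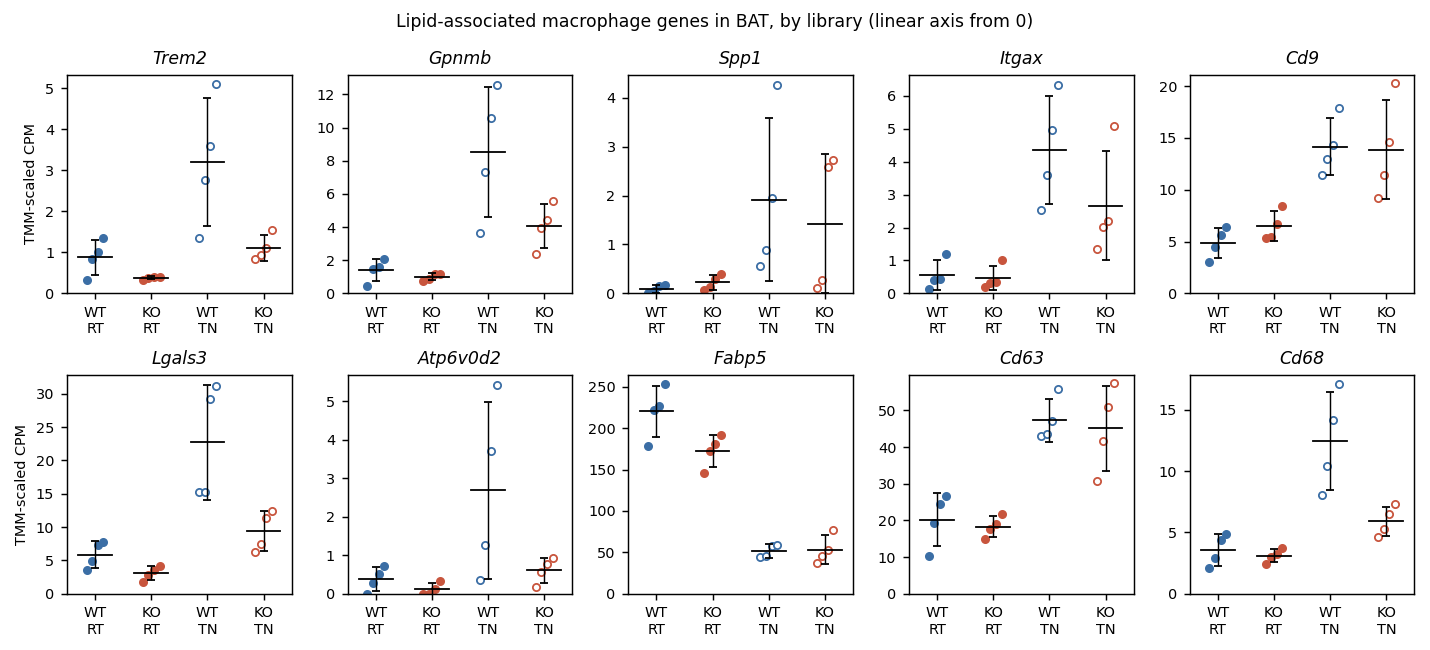
TMM-scaled CPM of the 10 genes in BAT, 1 point per library, with the group mean (line) and SD (bar) of 4 libraries; the y axes are linear from 0. Most genes are higher at TN in both genotypes, whereas Fabp5 is at 145 to 254 CPM at RT and 36.7 to 77.4 CPM at TN.

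In KO BAT, 7 of the 10 genes were higher at TN and Fabp5 was lower, where 6.64% of all genes were higher and 8.52% lower. Gpnmb had 0.747, 0.885, 1.17 and 1.19 CPM at RT and 2.37, 3.94, 4.43 and 5.57 CPM at TN, a log2 change of 2.02 (SE 0.43, adjusted p 0.00374). Itgax changed by 2.48 (SE 0.62, adjusted p 0.0108) and Lgals3 by 1.60 (SE 0.33, adjusted p 0.00355). For the tetraspanins the changes were 1.10 (SE 0.26, adjusted p 0.00802) in Cd9 and 1.30 (SE 0.24, adjusted p 0.00152) in Cd63. Trem2 changed by 1.53 (SE 0.48, adjusted p 0.0374) and Cd68 by 0.94 (SE 0.28, adjusted p 0.0315), none of the 7 with overlapping libraries. Such separation was found upward in 9.54% and downward in 11.8% of all genes.

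Spp1 (2.65, adjusted p 0.0771) and Atp6v0d2 (2.31, adjusted p 0.194) overlapped and were not called. The Trem2 call was lost in 8 of 13 alternatives and that of Cd68 in 5. The housing effect was not shown to differ between genotypes: the interaction called no member (0% of all genes), none by DESeq2 (0.084% of all genes), and 1 (Cd68) at an unadjusted p under 0.05 (10.2% of all genes), at -0.87 (SE 0.40, adjusted p 0.483). Without KO replicate 10 at RT the interaction of Itgax changed sign, to 0.21. It was -1.62 (SE 1.38, adjusted p 0.680) for Spp1, -0.53 (SE 1.61, adjusted p 0.933) for Atp6v0d2, -0.59 (SE 0.59, adjusted p 0.733) for Gpnmb and 0.40 (SE 0.27, adjusted p 0.606) for Fabp5, and ran from -0.49 to 0.07 for Trem2, Itgax, Cd9, Lgals3 and Cd63.

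Muscle transcripts were uneven across BAT. Skeletal muscle markers, 8 of 8 with counts, summed to 1.19 to 397 CPM in WT at RT, 8.51 to 5240.0 CPM in WT at TN, 2.18 to 3542 CPM in KO at RT and 1.57 to 7034 CPM in KO at TN. Without the 6 libraries over 500 CPM, a choice made after seeing the data, 6 members were still higher in WT at TN (Gpnmb, Itgax, Cd9, Lgals3, Cd63 and Cd68) and Fabp5 lower, with 27.1% of all genes called, while Trem2 and Spp1 were not called. In KO, where 2 libraries a group remained, 4.67% of all genes were called and of the members only Fabp5, at -2.11 (adjusted p 0.000137), and the others named above had log2 changes between 0.83 and 1.99.

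General macrophage markers rose in BAT with the members, where 15.9% of all genes were higher at TN in WT and 6.64% in KO. Of 15, 13 were higher at TN in WT and 13 in KO, with medians of 1.38 and 1.41, and their sum went from 80.9 to 175 CPM to 356 to 701 CPM in WT and from 96.3 to 115 CPM to 285 to 425 CPM in KO. As a percentage of that sum Trem2 overlapped between RT and TN in WT (0.186% to 1.02% and 0.391% to 0.961%), and so did Gpnmb (0.573% to 1.21% and 1.05% to 2.49%). Itgax was 0.164% to 0.524% at RT and 0.591% to 1.19% at TN in WT, without overlap, and 0.181% to 0.943% and 0.488% to 1.37% in KO, with overlap.

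Partners of the members changed in both directions in BAT. Of all genes there, 15.9% were higher and 16.7% lower at TN in WT, and 6.64% and 8.52% in KO. In WT at TN 9 of 20 were higher and 6 lower, among them Ctss at 1.88 (SE 0.28, adjusted p 0.000121), Capg at 1.69 (SE 0.27, adjusted p 0.000176), Ctsz at -1.57 (SE 0.23, adjusted p 9.07e-05) and Creg1 at -1.01 (SE 0.15, adjusted p 9.48e-05). In KO 6 were higher and 4 lower, with Apoe, a lipid carrier, at 2.23 (SE 0.31, adjusted p 0.000121) and Mmp12 at 4.37 (SE 0.66, adjusted p 0.000301). Of 17 V-ATPase subunits other than Atp6v0d2, 11 were lower and 1 higher in WT and 8 were lower in KO, led by Atp6v0e at -1.16 (SE 0.16, adjusted p 4.45e-05) in WT and -1.15 (SE 0.16, adjusted p 0.000106) in KO.

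For genotype in BAT, edgeR called no member at RT or at TN. At RT 0.0887% of all genes were called, 2 members had an unadjusted p under 0.05 (Trem2 and Lgals3), as had 19.4% of all genes, and DESeq2 called none (3.31% of all genes), with log2 changes from -1.61 to 1.19 over the 10. Without WT replicate 12 at RT, 10.6% of all genes and 1 member (Lgals3) were called. At TN 0% of all genes were called, 4 members and 5.24% of all genes had an unadjusted p under 0.05 and DESeq2 called none (0.0638% of all genes).

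Lgals3 and Cd68 were nevertheless separate at TN. Lgals3 had 6.33, 7.39, 11.3 and 12.5 CPM in KO and 15.2, 15.3, 29.2 and 31.2 CPM in WT, a log2 change of -1.28 (SE 0.33, adjusted p 0.598). Cd68 had 4.63, 5.25, 6.47 and 7.29 CPM against 8.06, 10.4, 14.2 and 17.1 CPM, a change of -1.07 (SE 0.28, adjusted p 0.602). Such separation downward held for 1.76% of all genes.

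In liver no member was called in any comparison. For KO against WT, 0.0853% of all genes were called at RT and 3.18% at TN, and the counts of members at an unadjusted p under 0.05 were 1 (Cd9) and 2 (Itgax and Cd9), against 10.2% and 17.6% of all genes. DESeq2 called no member in either, and 0.743% and 4.16% of all genes. The log2 changes ran from -2.15 to 0.78 at RT and from -0.26 to 1.25 at TN, and every member overlapped, while 5.83% and 12.5% of all genes did not. At TN general macrophage markers summed to 450.1 to 936 CPM in KO and 322 to 404 CPM in WT, without overlap. Of these 15 markers 1 (Lyz2) was called higher, and of the 20 partners 1 was called in each direction (Tyrobp and Lipa). At RT the sums overlapped, at 254 to 364 CPM in KO and 310 to 475 CPM in WT. Their part in the member values was not tested. For housing in WT, where 0.0227% of all genes were called, 1 member (Atp6v0d2) and 7.25% of all genes had an unadjusted p under 0.05 and DESeq2 called none (0.318% of all genes). The interaction called none (0% of all genes) and none by DESeq2 (0.0715%), with 3 (Itgax, Lgals3 and Cd68) at an unadjusted p under 0.05, against 7.33% of all genes.

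In KO liver all 10 genes had log2 changes above 0 at TN, with a median of 1.25 against 0.0063 over all genes, 0.114% of which were called. Gpnmb had 0, 0.0769, 0.257 and 0.323 CPM at RT and 1.06, 1.72, 1.86 and 6.01 CPM at TN, a change of 3.97 (SE 1.13, adjusted p 0.154). Itgax had 0.906, 1.23, 1.42 and 2.32 CPM and 3.40, 4.76, 5.92 and 12.7 CPM, a change of 2.19 (SE 0.57, adjusted p 0.123). Cd63 had 1.71, 2.64, 2.74 and 3.69 CPM and 4.67, 9.52, 9.65 and 10.7 CPM, a change of 1.68 (SE 0.45, adjusted p 0.128). These 3 did not overlap, as 4.35% of all genes did not upward, and DESeq2 called them with adjusted p of 0.00363, 0.00850 and 0.0142, along with 1.36% of all genes.

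Gpnmb rested on 0, 2, 8 and 10 counts at RT and 30, 52, 57 and 211 at TN. At an unadjusted p under 0.05, 6 members and 10.5% of all genes passed. Of the 20 partners, 1 (Syk) was called higher at TN in KO liver, with 0.114% of all genes called. General macrophage markers, none of 15 called, summed to 254 to 364 CPM at RT and 450.1 to 936 CPM at TN in KO liver, without overlap. Their part in the difference of the members was not tested.

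**Figure D5:**
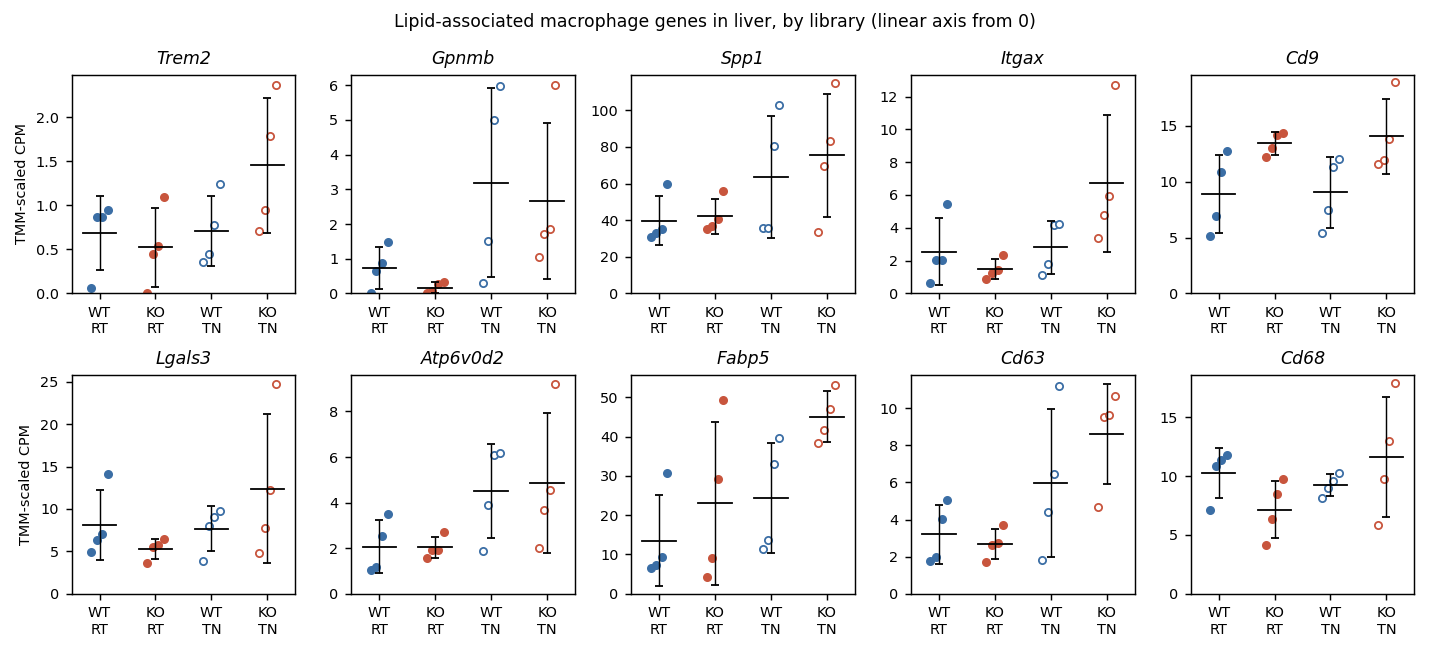
TMM-scaled CPM of the 10 genes in liver, 1 point per library, with the group mean (line) and SD (bar) of 4 libraries; the y axes are linear from 0. Gpnmb in KO lies between 0 and 0.323 CPM at RT and between 1.06 and 6.01 CPM at TN, and no gene separates KO from WT.

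Averaged over WT libraries at RT, Trem2 was at 12.6 ± 4.07 CPM (SD, n = 4) in eWAT, 0.882 ± 0.430 in BAT and 0.685 ± 0.417 in liver. Gpnmb was at 43.1 ± 23.2, 1.40 ± 0.672 and 0.743 ± 0.606 CPM in the same order, and Cd68 at 41.7 ± 10.9, 3.56 ± 1.29 and 10.3 ± 2.13 CPM. Spp1 was highest in liver, at 4.87 ± 5.23, 0.0949 ± 0.0823 and 39.7 ± 13.5 CPM. In a fit of all 48 libraries each of the 10 genes was higher in eWAT than in BAT, where 60.3% of all genes were called. The log2 differences ran from 1.06 (SE 0.23, adjusted p 0.000118) for Fabp5 to 3.92 (SE 0.22, adjusted p 1.60e-18) for Lgals3. Against liver, 8 genes were higher in eWAT, the largest being Cd63 at 4.80 (SE 0.19, adjusted p 1.48e-24), Atp6v0d2 was not called at 0.49 (SE 0.35, adjusted p 0.212), and 73.8% of all genes were called. Spp1 was lower in eWAT than in liver, at -4.57 (SE 0.43, adjusted p 5.05e-12).

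Between BAT and liver 8 members were called, 3 higher in BAT (Cd63, Fabp5 and Gpnmb) and 5 lower, against 68.6% of all genes called. Spp1 differed most, at -6.85 (SE 0.52, adjusted p 9.79e-15). Trem2 and Lgals3 were not called, at 0.31 (SE 0.29, adjusted p 0.368) and -0.14 (SE 0.20, adjusted p 0.562).

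Whether an effect differed between the 3 tissues was tested over the 24 libraries of a genotype or of a housing. The genotype effect called no member at RT, where 1.33% of all genes were called, or at TN, where 0.957% were. At an unadjusted p under 0.05 there were 3 members at RT and 6 at TN, against 16.1% and 15.9% of all genes, with Trem2 nearest to the threshold at an adjusted p of 0.0590. That the genotype effect differs between eWAT and the other tissues is therefore not shown for any of the 10.

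The housing effect in WT differed between tissues for 5 members, against 13.2% of all genes. These were Fabp5 (adjusted p 0.00492), Cd68 (0.00544), Cd9 (0.0111), Itgax (0.0409) and Lgals3 (0.0469). Leaving out each of the 24 libraries in turn kept Fabp5, Cd68 and Cd9 called in 24 fits, Itgax in 11 and Lgals3 in 6. With same-numbered libraries fitted as 1 animal (a replicate block), Cd9 was not called (adjusted p 0.0567 by edgeR) and the other 4 were. Over all genes the calls then went from 2630 to 908. The log2 changes of Fabp5 were -2.09 in BAT, -0.0056 in eWAT and 0.87 in liver. Those of Cd68 were 1.81, 0.82 and -0.16 in the same order. In KO 1 member differed, Cd63 (adjusted p 0.00457), against 4.17% of all genes, with 1.30 in BAT, -0.018 in eWAT and 1.68 in liver.

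Within eWAT the members moved together from library to library, apart from Fabp5 and Cd63. Over the 16 eWAT libraries, which share the group differences above, Pearson's r of log2 CPM was 0.97 between Gpnmb and Atp6v0d2 and 0.94 between Gpnmb and Trem2, and 0.30 between Gpnmb and Fabp5. Outside the set, the genes most like Trem2 in eWAT were C3ar1 (r 0.96), Ctss, Slc37a2, Lgmn and Cd300c2, and those most like Gpnmb were Nceh1 (r 0.96), Pld3, Cd300lb, Slc37a2 and Tnip1. Slc37a2 was in both lists, chosen from 14786 genes.

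In BAT the same measure gave 0.91 between Trem2 and Lgals3 and -0.77 between Gpnmb and Fabp5. The genes most like Gpnmb there were C1qc (r 0.95), Evi2a, Dpt, Col1a2 and Lyz2, and those most like Trem2 were Npr3 (r 0.90), Col18a1, Sncg, Mfge8 and Tgfbr1. In liver, where Trem2 was at most 2.36 CPM, the most like it were Fancb (r 0.90), Ddit4l, Gpr132, Fignl1 and Hps5, and the most like Gpnmb were Siglech (r 0.89), Det1, Mfge8, Htra1 and Pamr1. These are descriptions over 16 libraries, and the BAT libraries share the housing difference.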

How the data were processed

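RNA was sequenced from liver, BAT and eWAT (48 libraries, 12 groups of 4, grouped by the labels). The deposited files hold raw counts per Ensembl gene. The submitters' processing notes name fastp, STAR 2.6.1d, featureCounts 1.5.0-p3 and GRCm38 (mm10), with no role or settings; the annotation release and the use of strand are not given in the sources used here. Symbols came from a gene table that named 52073 of 56748 identifiers (91.8%), which in each library covered 94.8% of counts or more.

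The members and gene lists were chosen with earlier results of these data known. Genes were kept by filterByExpr with a minimum count of 10, scaled by TMM and tested with edgeR 4.0.16 (R 4.3.3) by its robust quasi-likelihood test, with 1 mean per group over the 16 libraries of a tissue. Adjusted p is Benjamini-Hochberg over all genes tested (17594 in liver, 18032 in BAT, 18933 in eWAT), and under 0.05 was called. The interaction is the KO minus WT difference at TN less that at RT. Tissues were compared over 48 libraries, and effects across tissues by F tests over 24. Members were named throughout; of list genes, up to 4 called ones with the smallest p were named, and the 5 genes of highest r to Trem2 and Gpnmb. DESeq2 1.42.0, RLE scaling, other filters, smaller fits and omitted libraries were alternatives. One result on single marker genes is not reported here. The code was tested on simulated counts. No pair of libraries held identical counts. Intervals on depth are not given, since every value is set beside its 4 replicates.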

Additional observations from a re-analysis of the deposited data

Results flagged for a closer look

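In 6 of 120 groups of 4 libraries, 1 library lay far from the other 3 by Dixon's test, which chance gives in about 1 group in 20. In WT liver at RT these were Trem2 in replicate 15 (0.0612 CPM, the nearest other library 0.862), Spp1 in replicate 11 (59.7 CPM, the nearest 35.4) and Fabp5 in replicate 18 (30.8 CPM, the nearest 9.41). The others were Gpnmb in replicate 5 of KO liver at TN (6.01 CPM, the nearest 1.86), Itgax in replicate 10 of KO BAT at RT (1.02 CPM, the nearest 0.340) and Fabp5 in replicate 8 of WT eWAT at TN (262 CPM, the nearest 334.6).

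The housing effect in WT differed between the 3 tissues by the edgeR F test for Fabp5 (adjusted p 0.00492), Cd68 (adjusted p 0.00544), Cd9 (adjusted p 0.0111), Itgax (adjusted p 0.0409) and Lgals3 (adjusted p 0.0469). In KO it differed for Cd63 (adjusted p 0.00457).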

How the results depend on the processing

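The count of members called in eWAT for KO minus WT at RT (5) was 2 with no filter on low counts and 1 to 6 leaving out each replicate. At TN (0 called) it was 1 with a filter of 1 CPM in 4 libraries, 7 with DESeq2 and 0 to 4 leaving out each replicate. For TN minus RT in KO eWAT (0) it was 5 with DESeq2 and 0 to 1 leaving out each replicate, where the member was Fabp5 (without KO RT replicate 16) or Cd9 (without KO TN replicate 5). It was 3 with DESeq2 in KO liver (0), 0 to 1 leaving out each replicate for KO minus WT at RT in BAT (0), and 1 for TN minus RT in KO BAT (8) without the muscle-rich libraries, which leaves 10 libraries. For the housing effect differing between tissues it was 3 in WT (5) with no filter and 3 to 5 leaving out each replicate, and 1 to 2 in KO (1); this omission was chosen after seeing the data. Fabp5, Cd68 and Cd9 in WT and Cd63 in KO were called in 24 of 24 such fits, Itgax in 11 and Lgals3 in 6. In WT BAT the 9 housing calls were kept in all 13 alternatives that kept the muscle-rich libraries. Tissue contrasts and genotype F tests were not rerun leaving out libraries.

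Among interactions near 0 that changed sign leaving out each replicate, Itgax in BAT ran from -1.25 to 0.21, Cd63 in BAT from -0.093 to 0.29, Trem2 in eWAT from -0.19 to 0.42, Gpnmb in eWAT from -0.38 to 0.30 and Cd68 in eWAT from -0.31 to 0.071. Without the muscle-rich libraries that of Fabp5 in BAT was -0.011 (0.40 with them) and that of Cd63 -0.20 (0.073). Over all alternatives the sign also changed for Atp6v0d2 in BAT (-1.07 to 0.79), Spp1 in eWAT (-0.56 to 1.38) and Spp1, Cd9, Atp6v0d2 and Fabp5 in liver. The cause was not tested.

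Replicate numbers recur across tissues, not between groups of a tissue. Of 35 same-number pairs across tissues 1 had a correlation of deviations over 0.1 (median 0.0066). Low correlation between unlike tissues cannot exclude a shared animal, and the labels do not say. The main fits over several tissues treated libraries as independent without that being shown, and the replicate block was the alternative. With the replicate block the members called were 10, 9 and 8 in the tissue contrasts, 0 and 0 for genotype, and 4 and 1 for housing (in WT Cd9 was lost, at an adjusted p of 0.0567 by edgeR), where all genes called in WT went from 2630 to 908. Members with few counts, such as Spp1 and Atp6v0d2 in BAT, have imprecise changes at this depth.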
